A study of Mus musculus with 18 samples.

Results

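The 7 genes described here are the interferon-induced chemokines Cxcl9 and Cxcl10, the chemokines Cxcl12, Cxcl13 and Cxcl14, which are often grouped as homeostatic, the membrane-anchored chemokine Cxcl16, and Cxcr4, the receptor of CXCL12. Their rows were taken by symbol, and all 7 were found among the 32285 genes of each of 10 single-cell mRNA matrices of mouse skin. The 7 were chosen with earlier results of these data known. All mice had the same operation, an incision in the back skin near the tail and a subcutaneous channel opened towards the neck. Expanded mice (EXP) also received a hydrogel that swells under the skin near the neck, and control mice (CTRL) received no expander. Live cells were sorted from the skin at day 1 (2 sequencing rounds per arm), day 2 (2 rounds per arm) and day 4 (1 round per arm), which gives 5 libraries per arm. Within a round the mice of an arm were pooled in one tube, so a library is a pool of mice. The p-values below measure the spread between such pools, except those over mice told apart by hashtag antibodies. The latter measure the spread between mice, and mice of the same pool shared a library. Strain, age and sex are not given in the sources used here.

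After filtering, 45495 cells remained, 28453 from control and 17042 from expanded skin, with 1853 to 7956 cells and a median of 6321.5 to 12755 unique molecular identifiers (UMIs, the tags that mark single captured mRNA molecules) per library. Clustering gave 30 clusters, of which 21 were named into 16 classes from marker genes, and 9 stayed unnamed and are called by their leading genes. The 2 arms differed in cell make-up. Fibroblast-like cells were 32.1 ± 11.5% of the kept cells in control and 9.74 ± 4.80% in expanded libraries (SD, n = 5 each), and neutrophil-like cells were 0.384% and 7.68% on average. No more than 18 barcodes were shared between any pair of libraries.

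Chemokines are small secreted proteins that bind receptors on the surface of migrating cells and guide them along a gradient. CXCL9 and CXCL10 are made by cells that sense interferon and bring in T cells through CXCR3. CXCL12 from stromal and endothelial cells retains leukocytes and progenitors that carry CXCR4, and the scavenging receptor ACKR3 removes it. CXCL13 guides B cells through CXCR5, CXCL14 is produced by resting epithelium, and CXCL16 is a transmembrane ligand of CXCR6 that proteases can shed from the cell surface.

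In the mm10 mouse genome, Cxcl9 (chr5:92321347-92328079) and Cxcl10 (chr5:92346638-92348889) are neighbours on the minus strand of chromosome 5, and Cxcl13 (chr5:95956951-95961068) lies on the plus strand of the same chromosome. Cxcl12 lies at chr6:117168535-117181367 on the plus strand. The minus strand holds Cxcl14 (chr13:56288643-56296551), Cxcl16 (chr11:70453983-70459984) and Cxcr4 (chr1:128588199-128592293). The 250 bases before the transcription start were read from RefSeq (GRCm38.p6) for the 6 members with an entry, which leaves out Cxcl16. They were searched on both strands for cores of the interferon-stimulated response element (GAAA, any 2 bases, GAAA), the gamma-activated site (TTC, any 3 bases, GAA) and the NF-kappaB site (GGG, any 3 bases, TTCC), which may overlap. Among all 32851 promoter windows of this length, 2.98%, 7.02% and 4.65% held each of these in turn. The 3 windows shown are the interferon-induced pair, whose values differ between cell classes, and Cxcl14, the other member whose window held a match (capitals mark a match).
Cxcl9 (chr5:92328080-92328329, minus strand): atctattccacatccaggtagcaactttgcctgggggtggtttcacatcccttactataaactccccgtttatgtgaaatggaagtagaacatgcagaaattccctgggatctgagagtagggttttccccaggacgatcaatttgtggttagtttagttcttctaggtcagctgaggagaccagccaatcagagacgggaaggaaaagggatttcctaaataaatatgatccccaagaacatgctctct
Cxcl10 (chr5:92348890-92349139, minus strand): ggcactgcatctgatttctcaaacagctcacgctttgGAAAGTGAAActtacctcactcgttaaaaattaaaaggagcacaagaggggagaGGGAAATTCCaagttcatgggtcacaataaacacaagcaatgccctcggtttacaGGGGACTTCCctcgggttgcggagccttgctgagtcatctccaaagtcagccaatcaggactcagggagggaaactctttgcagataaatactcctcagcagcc
Cxcl14 (chr13:56296552-56296801, minus strand): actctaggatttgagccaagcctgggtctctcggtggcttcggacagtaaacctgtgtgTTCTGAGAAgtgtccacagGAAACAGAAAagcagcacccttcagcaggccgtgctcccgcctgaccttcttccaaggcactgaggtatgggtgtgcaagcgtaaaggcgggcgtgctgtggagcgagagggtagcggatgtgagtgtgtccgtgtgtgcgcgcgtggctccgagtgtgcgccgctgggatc
The Cxcl10 window held 1 interferon-stimulated response element core at -213 and 2 NF-kappaB cores at -159 and -104, counted from the transcription start. The Cxcl14 window held 1 gamma-activated site core at -191 and 1 interferon-stimulated response element core at -172. None of these letters was found in the windows of Cxcl9, Cxcl12, Cxcl13 or Cxcr4. A match describes the letters and was not tested as a binding site.

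The chemokines differed in the cells where their mean level was highest, but the sets of cells that held them overlapped. Levels are given as CPM, the UMIs of a gene divided by all UMIs of the cells of a class in a library and scaled to 1e+06, as mean ± SD over the libraries with at least 20 cells of the class. Cxcl14 was highest in basal keratinocyte-like cells, the dividing layer of the epidermis, at 2507 ± 717 CPM (n = 10), followed by Schwann-like cells, the glia of skin nerves, at 860.3 ± 525 CPM (n = 8). The ranges of these neighbours overlapped slightly, with 1499 CPM as the lowest basal value and 1826 CPM as the highest Schwann-like value. Hair follicle keratinocyte-like (298 ± 202 CPM, n = 6), fibroblast-like (190.5 ± 254 CPM) and suprabasal keratinocyte-like cells (178 ± 49.9 CPM) came next and did not differ beyond their spread. Cxcl12 was highest in endothelial-like cells at 554 ± 232 CPM. A shallow unnamed cluster led by Rarres2 and Ctsk (237 ± 257 CPM, n = 9), an unnamed cluster led by Lrrc15 and Cilp (214 ± 102 CPM) and fibroblast-like cells (170.3 ± 56.4 CPM) followed and overlapped each other. Lower Cxcl12 levels were found in smooth muscle-like (79.6 ± 27.7 CPM), basal (76.6 ± 23.9 CPM) and suprabasal keratinocyte-like cells (40.8 ± 10.6 CPM), the first 2 of them within each other's spread.

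Cxcl16 was highest in antigen-presenting cells. An unnamed cluster led by Ccl22 and Cd207, genes of mature dendritic and Langerhans cells, held 649.9 ± 289.8 CPM, dendritic-like cells 298 ± 109 CPM and macrophage or monocyte-like cells 117 ± 89.7 CPM. Suprabasal keratinocyte-like cells, at 91.9 ± 19.1 CPM, were within the macrophage spread. Cxcr4 was highest in 4 leukocyte classes, with 368 ± 119.6 CPM in T cell-like, 258 ± 63.4 CPM in macrophage or monocyte-like, 222 ± 80.3 CPM in dendritic-like and 193 ± 36.9 CPM (n = 6) in neutrophil-like cells. The last 3 did not differ beyond their spread. Gamma delta T cell-like (4.33 ± 4.10 CPM) and mast cell-like cells (0.920 ± 1.70 CPM) lay below non-leukocyte groups such as the Coch and Fmod cluster (25.2 ± 8.01 CPM) and endothelial-like cells (21.8 ± 13.4 CPM).

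The interferon-induced pair was spread over stromal and myeloid cells, with large differences between libraries. Mean Cxcl9 was 106 ± 107 CPM in the Lrrc15 and Cilp cluster, 60.1 ± 83.3 CPM in dendritic-like cells, 58.5 ± 114 CPM in an unnamed cluster led by Coch and Fmod, and 29.5 ± 31.7 CPM in macrophage or monocyte-like cells, and none of these neighbours differed beyond its spread. Cxcl10 was highest in Schwann-like cells at 355 ± 238 CPM (n = 8), before the Coch and Fmod cluster (186 ± 177 CPM), the Lrrc15 and Cilp cluster (169 ± 145 CPM), T cell-like (83.3 ± 37.5 CPM) and endothelial-like cells (80.2 ± 63.4 CPM). Cxcl13 was found mainly in macrophage or monocyte-like cells (18.0 ± 20.4 CPM) and fibroblast-like cells (12.2 ± 17.9 CPM), and 1 library raised its mean in the shallow cluster, described below.

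**Figure D1:**
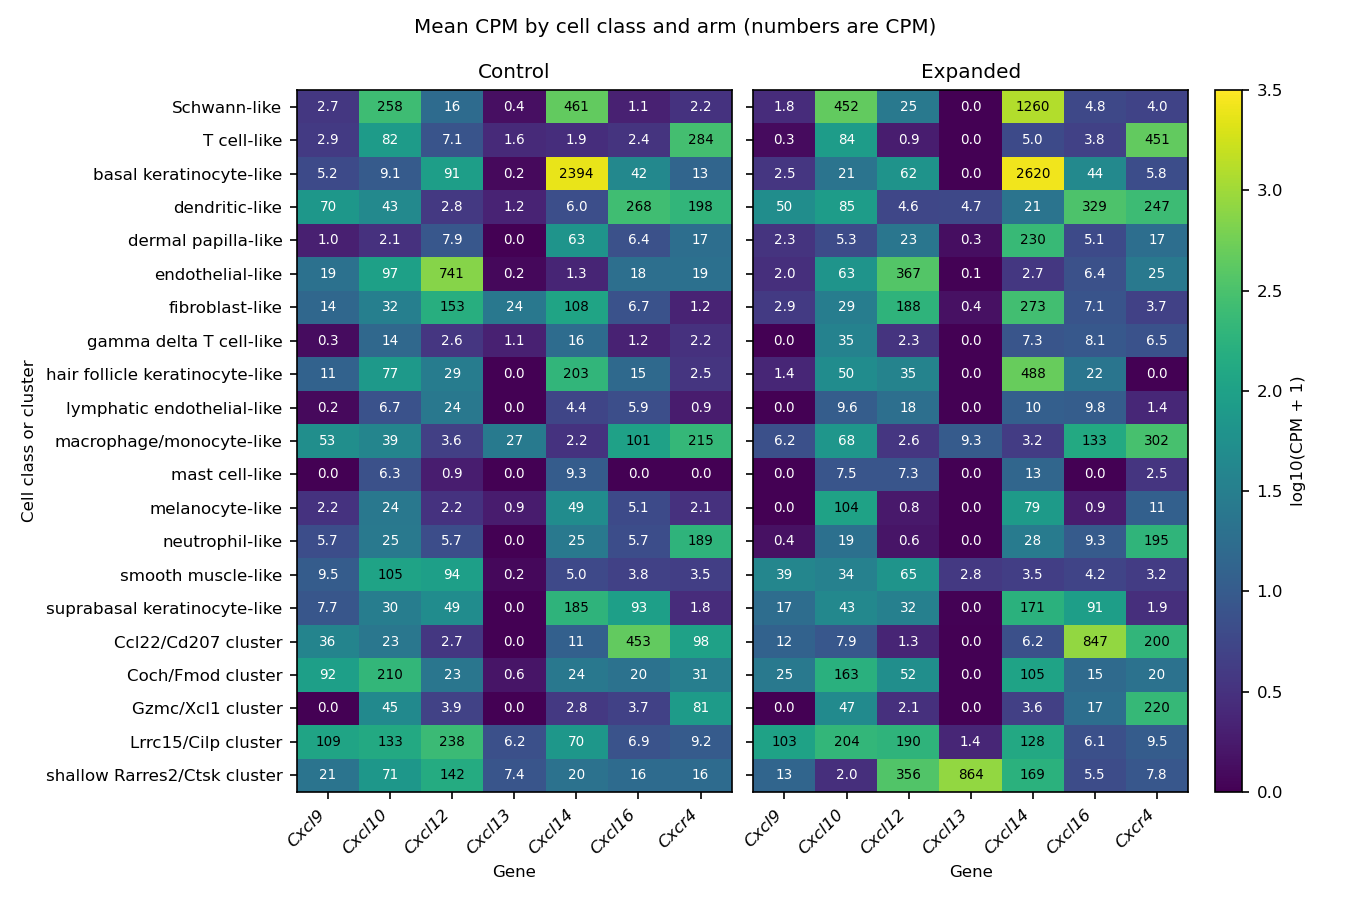
Mean level of each member (CPM, colour on a log10(CPM + 1) scale) in each cell class or unnamed cluster, with control and expanded libraries in separate panels. Cxcl14 is brightest in basal keratinocyte-like cells, Cxcl12 in endothelial-like cells, Cxcl16 in the Ccl22 and Cd207 cluster and Cxcr4 in T cell-like cells.

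The members also differed in how many cells carried them. Cxcl13 had 3650 UMIs in 319 cells, and the 10 cells with the most UMIs held 41.7% of them. Cxcl9 had 11064 UMIs in 901 cells (1.98% of all cells), with 20.3% in the top 10 cells, and Cxcl10 had 26001 UMIs in 3005 cells, with 12.7% in the top 10 cells. At the other end, the top 10 cells held 0.931% of the 27833 Cxcr4 UMIs and 1.60% of the 27980 Cxcl16 UMIs. Cxcl12 (46594 UMIs in 10876 cells) and Cxcl14 (101860 UMIs in 7662 cells) lay between, at 2.87% and 3.94%. Of the cells with Cxcl9, 34.6% also held Cxcl10, beside 6.61% of all kept cells. Of the cells with Cxcl10, 10.4% also held Cxcl9, beside 1.98% of all cells. Depth and class of the cells were not taken into account.

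**Figure D2:**
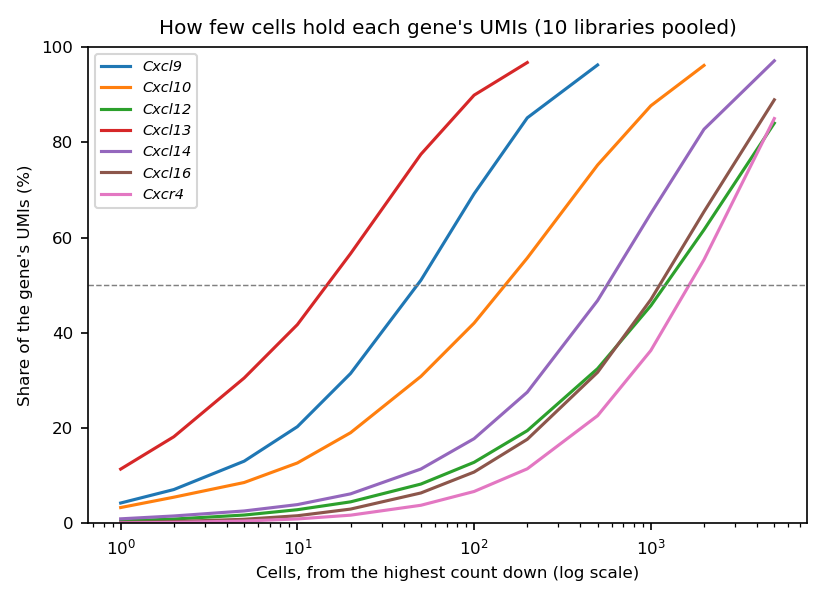
Cumulative share of each member's UMIs (percent, y axis) held by its highest cells, ranked by UMIs (number of cells, log x axis). The Cxcl13 curve rises first, with 41.7% in 10 cells, and the Cxcr4 curve last, with 0.931% in 10 cells.

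Expanded and control libraries were compared within each class by edgeR's quasi-likelihood test on summed counts, with day as a covariate and p-values adjusted over all genes tested in the class. A member passed where the adjusted p was under 0.05. The test could be run in 11 named classes and 5 unnamed clusters. Of the 112 pairs of a member and a class or cluster, 60 had enough counts to be tested, and 12 of these passed, 5 higher and 7 lower in expanded skin. Over all genes and the same 16 classes and clusters, 12.7% of the tests passed. Values for the 5 libraries of an arm are given below in the order day 1 round 1, day 1 round 2, day 2 round 1, day 2 round 2 and day 4.

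**Figure D3:**
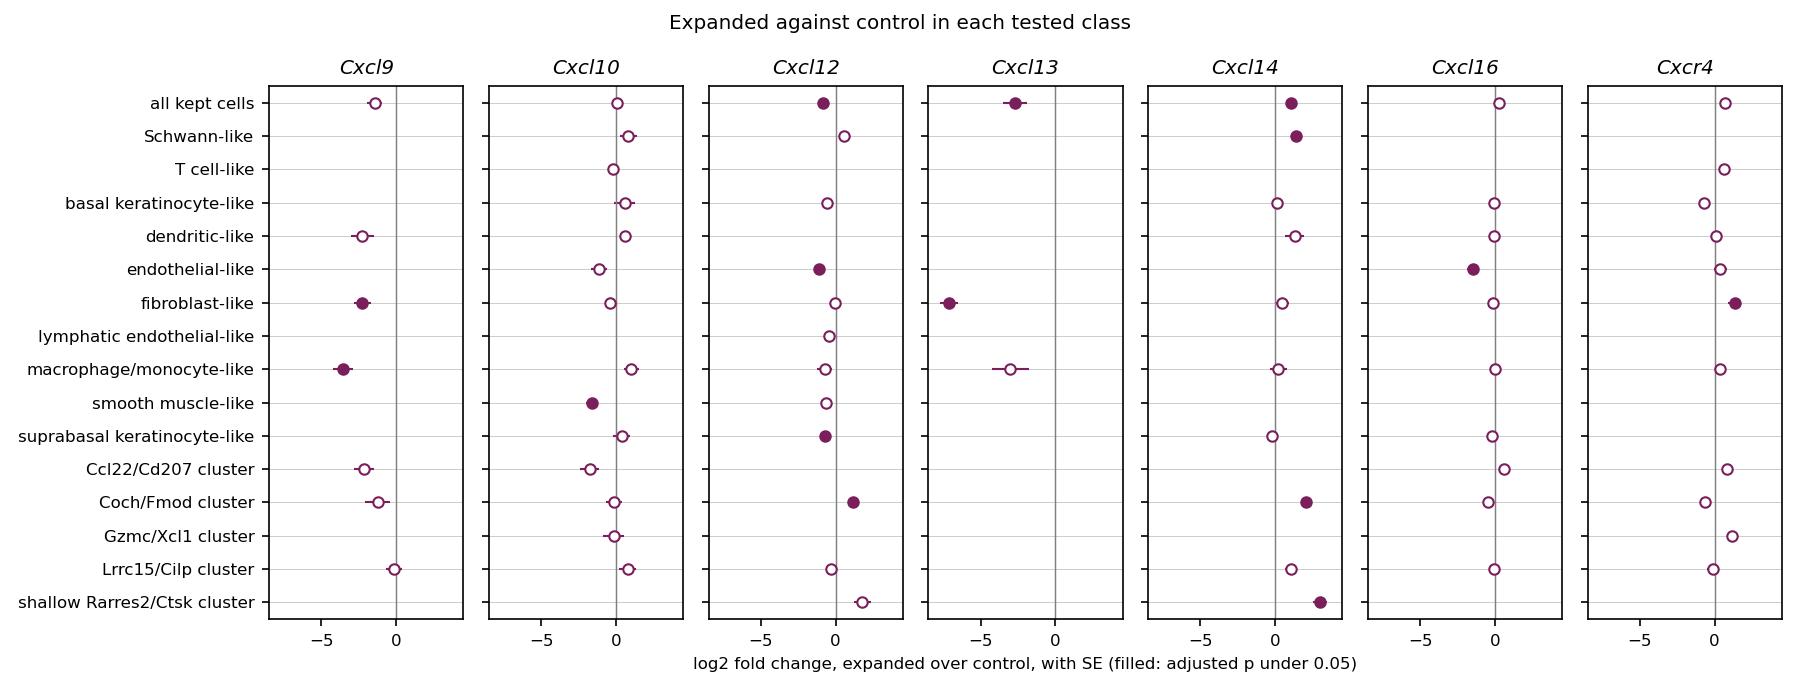
Log2 fold change of each member, expanded over control (x axis), with its standard error, in each class or cluster where it was tested. Filled points passed at an adjusted p under 0.05. Cxcl12 has passing values on both sides of 0, at 1.17 in the Coch and Fmod cluster and at -1.13 in endothelial-like cells.

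Cxcl9, a ligand of CXCR3 that depends on interferon-gamma, fell in macrophage or monocyte-like and in fibroblast-like cells. Macrophage or monocyte-like cells of the control libraries held 27.8, 59.1, 18.9, 71.3 and 87.5 CPM, and those of the expanded libraries 1.14, 0.351, 1.11, 9.86 and 18.3 CPM. All control libraries lay above all expanded libraries, and in both arms the day 4 library was highest. The log2 fold change was -3.57 ± 0.65 (SE; edgeR adjusted p = 0.00424), in a class where 25.8% of the genes tested passed. When counts were summed per mouse, told apart by hashtag antibodies, the median was 35.6 CPM in 13 control mice and 1.47 CPM in 12 expanded mice. Without expanded day 2 round 2 the log2 fold change was -4.35.

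The macrophage or monocyte-like class was made of different cells in the 2 arms. Cluster 7, led by the resident macrophage genes Cd209f and Folr2, held 87.1% of the class in control and 8.20% in expanded skin, and cluster 6, led by the monocyte genes Chil3 and Ly6c2, held 12.9% and 91.8%. Within cluster 7, Cxcl9 was at 28.2, 62.1, 19.998, 113 and 94.8 CPM in the control libraries. The 3 expanded libraries with at least 20 such cells held 2.07 CPM (day 1 round 1), 0 CPM (day 1 round 2) and 102 CPM (day 4), so the groups overlapped there. Over pooled cells, control was 2.197 times as high as expanded in cluster 7 (exact 95% interval 1.64 to 3.01, which covers counting error only). The expanded pool of cluster 7 held no day 2 library, whereas the control pool did. In cluster 6 control was 6.44 times as high (4.59 to 8.96). There 56 of the 57 control UMIs came from day 2, where only round 2 had at least 20 such control cells. The 3 control libraries of cluster 6 ranged from 0 to 31.8 CPM and the 5 expanded libraries from 0 to 10.4 CPM, so the arms overlapped. By day, the ratio in cluster 7 was 24.9 at day 1 (6.84 to 206.8) and 0.926 at day 4 (0.676 to 1.29), so at day 4 no difference within that cluster was detectable at this depth. In cluster 6 it was 10.1 at day 2 (6.84 to 14.8) and 0.328 at day 4 (0.00813 to 1.91), where control held 1 UMI. The summed level of 12 dendritic cell markers in the class also differed between the arms, from 7099 to 18038 CPM (median 13155) in control and from 853 to 4135 CPM (median 1910) in expanded libraries. This list includes the MHC class II genes H2-Ab1 and Cd74, so the sum is not specific to dendritic cells. Cd74 by itself had a mean of 8824 CPM in control and 1676 CPM in expanded libraries of the class. The part of the cluster make-up or of these markers in the Cxcl9 difference was not tested.

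In fibroblast-like cells Cxcl9 was at a low level and fell. Control libraries held 3.08, 2.40, 3.83, 36.9 and 22.0 CPM, and expanded libraries 0.729, 0.600, 8.39, 1.72 and 3.07 CPM. The arms overlapped, since expanded day 2 round 1 stood above 3 control libraries, with 51 of its UMIs in 1 cell. The test gave a log2 fold change of -2.25 ± 0.57 (edgeR adjusted p = 0.0105, where 36.5% of the genes in the class passed), and without control day 2 round 2 it was -1.62 and did not pass (edgeR adjusted p = 0.0618). It did not pass at a finer clustering (-0.46), over hashtagged mice (-0.89) or without day as a covariate either. The class was made of different clusters in the 2 arms. Cluster 0, led by Col1a2 and Col1a1, held 47.4% of its control and 5.14% of its expanded cells, and cluster 9, led by Mme and Tnc, held 13.9% and 56.6%. In cluster 0 Cxcl9 was at 4.503, 0.351, 7.36, 78.1 and 26.5 CPM in control, and at 6.09, 0 and 130.0 CPM in the first 3 expanded libraries, which alone had at least 20 such cells, so the arms overlapped. In cluster 9 control libraries held 267 Cxcl9 UMIs and expanded libraries none in 957 cells. The part of the clusters' shares in the class difference was not tested. Without expanded day 2 round 1 the log2 fold change in the class was -2.90.

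Dendritic-like cells held 11.7, 19.4, 29.3, 179 and 110.2 CPM of Cxcl9 in control and 0.550, 1.64, 8.99, 10.2 and 229.9 CPM in expanded libraries. The expanded value at day 4 was the highest of all 10 and came from 577 UMIs in 10 cells. The difference did not pass (log2 fold change -2.27 ± 0.78, edgeR adjusted p = 0.0689, beside 16.1% of genes). In the Ccl22 and Cd207 cluster the difference was -2.16 ± 0.66 and did not pass either (edgeR adjusted p = 0.0668, beside 6.53% of genes).

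Cxcl10 shares its receptor with Cxcl9 and responds to type I interferon and NF-kappaB as well. It fell in smooth muscle-like cells. Control libraries held 52.3, 53.5, 100.2, 77.0 and 242 CPM there, and expanded libraries 50.7, 43.4, 33.1, 12.6 and 27.9 CPM. All expanded values lay below the lowest control value, narrowly so at day 1. The fitted log2 fold change was -1.61 ± 0.38 (edgeR adjusted p = 0.0115), where 19.8% of genes passed, and it did not pass without either day 4 library (adjusted p up to 0.0661) or with cells thinned to 2000 UMIs (-1.003). Endothelial markers in these cells summed to a median of 291 CPM in control and 563 CPM in expanded libraries, and their part was not tested. By day it passed at day 2 (-1.88 ± 0.37, edgeR adjusted p = 0.0199, where 3.81% of genes passed) and at day 4 (-3.22 ± 0.47, edgeR adjusted p = 0.00897, where 2.42% passed), the latter with 1 library per arm and the spread taken from the other days.

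Cxcl10 in macrophage or monocyte-like cells had values on the other side. The control libraries held 9.53, 11.5, 1.46, 67.8 and 103 CPM and the expanded libraries 36.5, 34.8, 68.5, 92.0 and 108 CPM. At each day and round the expanded library was the higher one, while the arms overlapped, and the difference did not pass (log2 fold change 1.02 ± 0.51, edgeR adjusted p = 0.166). In endothelial-like cells, control libraries held 75.6, 30.2, 101, 82.1 and 198 CPM and expanded libraries 5.87, 29.4, 92.8, 167 and 20.4 CPM. That difference did not pass over libraries (-1.14 ± 0.54, edgeR adjusted p = 0.184), whereas over hashtagged mice it was -3.46 (edgeR adjusted p = 4.89e-04). The mouse fit held 10 control and 5 expanded mice, the highest expanded one at 39.9 CPM, below both expanded libraries of day 2. Cells without a mouse call, and mice with under 20 cells of the class, were left out of it. Schwann-like cells, the highest class for Cxcl10, ranged from 62.6 to 512 CPM in control and from 170.3 to 691 CPM in expanded libraries, with no pass (0.84 ± 0.58, edgeR adjusted p = 0.712).

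**Figure D4:**
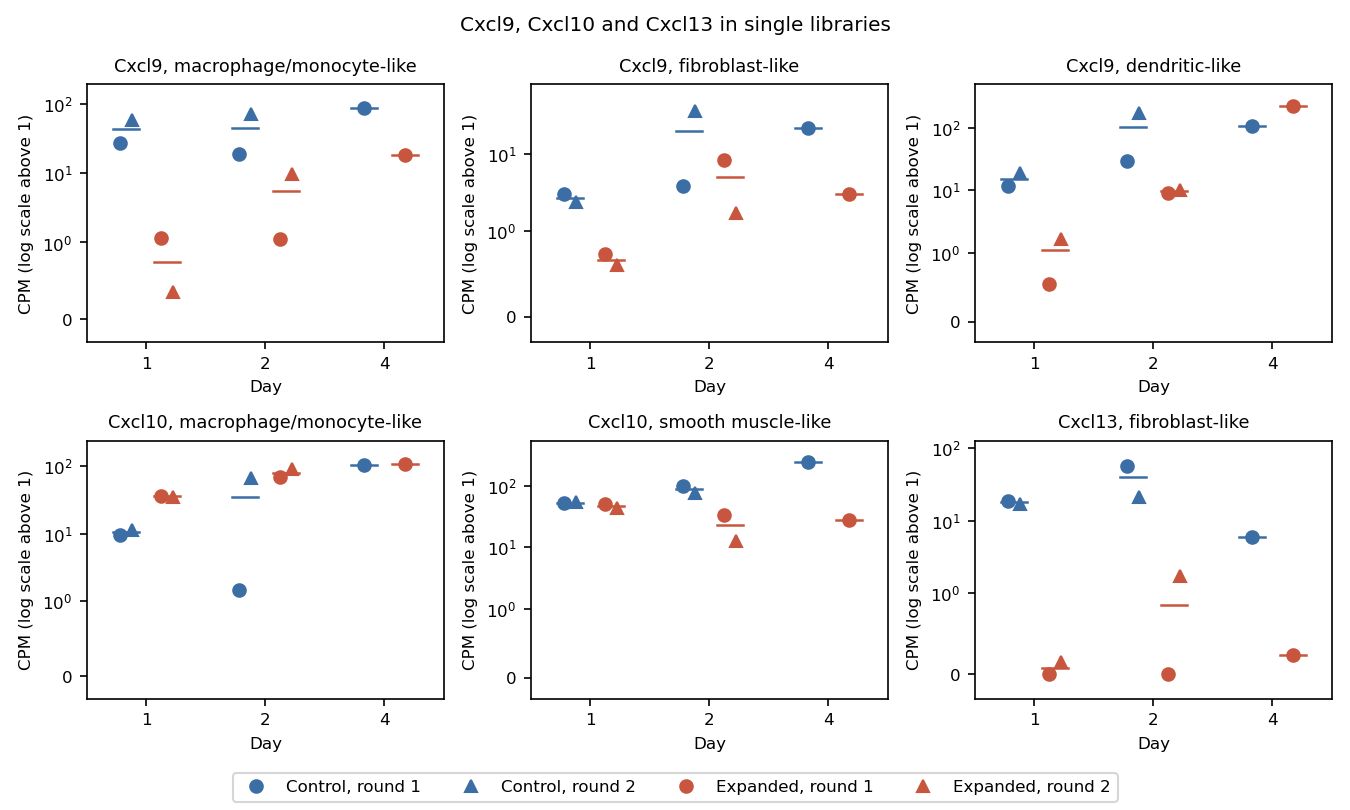
Level (CPM, y axis, log scale above 1) of Cxcl9, Cxcl10 and Cxcl13 in each library by day (x axis) in 6 pairs of a gene and a class, with circles for round 1, triangles for round 2 and bars for the mean of an arm and day. Expanded libraries lie below all control libraries for Cxcl9 in macrophage or monocyte-like cells, Cxcl10 in smooth muscle-like cells and Cxcl13 in fibroblast-like cells.

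Cxcl13, the ligand that draws B cells into lymphoid follicles, was nearly absent from fibroblast-like cells of expanded skin. Control libraries held 18.8, 16.9, 56.9, 21.4 and 6.03 CPM, from 806, 359, 461, 278 and 140 UMIs. Expanded libraries held 0, 0.150, 0, 1.72 and 0.236 CPM, from 0, 1, 0, 3 and 1 UMIs. The arms did not overlap. The log2 fold change was -7.11 ± 0.63 (edgeR adjusted p = 1.21e-04), and the pooled counts, 2044 UMIs against 5, gave a level 112 times as high in control (exact 95% interval 47.9 to 345, counting error only). The size of the fold rests on these few UMIs. It was -8.20 without expanded day 2 round 2 and -6.50 without expanded day 2 round 1. With doublets kept it was -4.29 and at a finer clustering -5.52, and it passed in each of these fits. Without the highest cell of each library it was -10.73 and passed too. That fit leaves no UMI in the expanded arm, so it cannot gauge the fold.

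Nearly all of these UMIs, 1972 of the 2044 in control, lay in cluster 13, led by Apod and Gpx3, which made up 12.2% of the control and 18.1% of the expanded fibroblast-like cells. In that cluster, examined after the data had been seen, Cxcl13 was at 245, 229, 284, 126 and 63.7 CPM in control and at 0, 0, 0 and 1.39 CPM in the 4 expanded libraries with enough cells. Expanded day 2 round 2, left out with 19 cells, held 3 UMIs in 1 of them. Its log2 fold change was -8.75 (edgeR adjusted p = 6.90e-06, where 23.0% of genes passed). The difference was as large within this cluster as in the whole class. By day, the class passed at day 1 (1165 against 1 UMI, edgeR adjusted p = 0.0162, where 8.59% of genes passed) and at day 2 (739 against 3 UMIs, edgeR adjusted p = 0.0116, where 7.45% passed), and at day 4 the counts were 140 and 1.

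Macrophage or monocyte-like cells held Cxcl13 at 16.4, 24.6, 7.29, 20.1 and 65.5 CPM in control and at 35.4, 10.9, 0, 0 and 0 CPM in expanded libraries. Expanded values at day 1 came from 2 cells in each library and lay within the control range, and from day 2 no UMI was counted. Over all days the difference did not pass (-3.01 ± 1.22, edgeR adjusted p = 0.0913). The contrast at day 2 passed (edgeR adjusted p = 0.0339, where 0.871% of genes passed), with a level at least 102-fold lower when the absent counts are set to a floor of 3 UMIs over the group, and day 4 was at least 111-fold lower by the same floor. The resident cluster 7 held 467 of the 469 control UMIs, and its share of the class was 8.20% in expanded skin. Within it, Cxcl13 was at 32.4 ± 24.7 CPM in control (n = 5). The 3 expanded libraries with at least 20 such cells held 53.7 ± 49.4 CPM, and the groups overlapped. Expanded day 2 had 8 and 12 cells of cluster 7. In control day 2 round 2, 48 of the class's 69 UMIs came from 1 cell. The part of the clusters' shares in the class difference was not tested.

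Expanded libraries did hold Cxcl13 in a few cells outside these classes. In the shallow cluster led by Rarres2 and Ctsk, 685 UMIs in 3 cells of expanded day 4 gave 3205 CPM, and 74 UMIs gave 247 CPM at day 2 round 1. These cells made expanded day 4 the only expanded library with a high Cxcl13 level over all cells.

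Cxcl12, the stromal ligand of CXCR4, fell in endothelial-like and suprabasal keratinocyte-like cells and rose in the Coch and Fmod cluster. Endothelial-like cells held 851, 879, 639, 572 and 763 CPM in control and 559, 290.1, 219.5, 378 and 389 CPM in expanded libraries. All expanded libraries lay below all control libraries, with expanded day 1 round 1 close to control day 2 round 2. The test gave a log2 fold change of -1.13 ± 0.19 (edgeR adjusted p = 0.00336, where 12.5% of genes passed) and it passed without any 1 of the 10 libraries, while over hashtagged mice it was -0.998 ± 0.36 and did not pass (edgeR adjusted p = 0.0837). The share of endothelial-like cells with a Cxcl12 UMI, with each cell thinned to 2000 UMIs, was 52.1 ± 3.82% in control and 37.0 ± 10.0% in expanded libraries. Without thinning it was 69.0% and 64.9%, at median depths of 5109 and 10415 UMIs. T cell-like cells, which should lack Cxcl12, gave 0.716% and 0.138% after thinning.

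Fibroblast markers counted in endothelial-like cells moved with this result. The summed level of 10 of them ranged from 1028 to 2223 CPM (median 1204) in control and from 24.4 to 1851 CPM (median 56.2) in expanded libraries. The ratio of Cxcl12 to Col1a1 UMIs was 1.63 and 2.07 in endothelial-like cells, against 0.00324 and 0.00932 in fibroblast-like cells, for control and expanded in turn. The part of fibroblast RNA in the difference was not tested.

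In suprabasal keratinocyte-like cells, Cxcl12 was at 61.3, 44.3, 47.9, 43.3 and 50.5 CPM in control and at 35.0, 34.0, 27.7, 34.5 and 29.0 CPM in expanded libraries. The arms did not overlap. The fitted log2 fold change was -0.72 ± 0.13 (edgeR adjusted p = 0.00389, where 21.2% of genes passed), but with cells thinned to 2000 UMIs it was -0.06 and did not pass. The fibroblast marker sum in this class had a median of 1735 CPM in control and 137 CPM in expanded libraries, and the ratio of Cxcl12 to Col1a1 UMIs was 0.0453 in control and 0.629 in expanded. The part of free RNA in the difference was not tested.

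The Coch and Fmod cluster, whose other leading genes include the tendon and corneal stroma genes Tnmd and Kera, held Cxcl12 at 28.8, 19.7, 6.18, 19.9 and 40.1 CPM in control and at 58.5, 83.6, 33.1, 24.2 and 60.9 CPM in expanded libraries. The expanded library was higher in every pair of the same day and round, and the arms overlapped, since both expanded libraries of day 2 lay within the control range. The log2 fold change was 1.17 ± 0.24 (edgeR adjusted p = 0.00840, where 11.3% of genes passed), and at day 1 alone it was 1.52 ± 0.35 (edgeR adjusted p = 0.0496, where 2.59% passed). Here the result passed without any 1 library, and it did not pass without day as a covariate.

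In fibroblast-like cells as a whole, Cxcl12 did not pass. Control libraries held 161, 111, 142, 199 and 152 CPM and expanded libraries 95.5, 129, 199.8, 252 and 262 CPM (log2 fold change -0.04 ± 0.21, edgeR adjusted p = 0.905). Its clusters, examined after the data had been seen, went opposite ways. In cluster 9 Cxcl12 rose from 23.1, 8.05, 64.8, 101 and 58.0 CPM to 53.9, 133, 156, 246 and 245 CPM (1.84 ± 0.33, edgeR adjusted p = 0.00161, where 26.8% of genes passed). Cluster 13, the source of Cxcl13 in control skin, fell from 840.3, 649.8, 477, 640.5 and 707 CPM to 346, 185, 582 and 379 CPM (-1.003 ± 0.29, edgeR adjusted p = 0.0263). In cluster 9 only expanded day 1 round 1 lay within the control range, and in cluster 13 expanded day 2 round 1 lay within the control range. The difference between the clusters was not tested. In smooth muscle-like (-0.64 ± 0.22, edgeR adjusted p = 0.0605) and basal keratinocyte-like cells (-0.56 ± 0.19, edgeR adjusted p = 0.139, where 1.43% of genes passed) Cxcl12 did not pass. The Lrrc15 and Cilp cluster (3.33% of genes), lymphatic endothelial-like (12.7%) and gamma delta T cell-like cells (0.611%) had no member that passed.

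Cxcl14, the chemokine of resting epithelium, rose in Schwann-like cells, the Coch and Fmod cluster and the shallow cluster. The epidermal source itself gave overlapping values. Basal keratinocyte-like cells held 1585, 2659, 1499, 3273 and 2953 CPM in control and 1658, 2215, 2869.7, 3409.8 and 2949 CPM in expanded libraries, and after thinning 82.7 ± 2.03% and 83.9 ± 3.96% of these cells had a Cxcl14 UMI. Schwann-like cells held 441, 312.4, 482 and 606 CPM in the 4 control libraries and 1057, 777, 1379.6 and 1826 CPM in the 4 expanded libraries with enough cells, in the same order without day 1 round 1. All expanded libraries lay above all control libraries. The test gave a log2 fold change of 1.38 ± 0.21 (edgeR adjusted p = 0.0315), in a class where 0.207% of the genes passed. Leaving out 1 library moved the adjusted p between 8.41e-04 and 0.282, with fold changes from 1.201 to 1.51, and the call was lost without control day 1 round 2, either control library of day 2, control day 4, expanded day 1 round 2 or expanded day 4, and without day as a covariate.

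The share of Schwann-like cells with a Cxcl14 UMI was 30.02 ± 7.82% in control and 58.2 ± 7.15% in expanded libraries after thinning, and 32.9% and 64.4% before it, at median depths of 2704 and 3816 UMIs. Endothelial-like cells, which should lack Cxcl14, gave 0.269% and 0.491% after thinning. The summed level of 9 basal keratinocyte markers in Schwann-like cells was 1496 to 1847 CPM in control and 1312 to 1531 CPM in expanded libraries, and its part in the difference was not tested. In cluster 21, the one Schwann-like cluster refitted alone after the data had been seen, the log2 fold change was 1.44 ± 0.21 (edgeR adjusted p = 0.0220, where 0.255% of genes passed).

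In the Coch and Fmod cluster, Cxcl14 was at 16.1, 32.6, 13.1, 32.1 and 26.4 CPM in control and at 99.4, 148, 124, 25.7 and 129.6 CPM in expanded libraries. Expanded day 2 round 2 lay within the control range and the other 4 expanded libraries lay above it. The fitted log2 fold change was 2.07 ± 0.35 (edgeR adjusted p = 0.00317) and passed without any 1 library. Basal keratinocyte markers summed to a median of 304 CPM in control and 325 CPM in expanded libraries of this cluster, with overlapping ranges.

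The shallow Rarres2 and Ctsk cluster held Cxcl14 at 10.4, 22.4, 5.12, 38.6 and 22.3 CPM in control and at 51.1, 349.8, 109.8 and 164 CPM in the 4 expanded libraries after day 1 round 1. These groups did not overlap (2.996 ± 0.49, edgeR adjusted p = 0.0179, where 0.792% of genes passed). The adjusted p lay between 0.0179 and 0.0962 when 1 library was left out, and it missed the threshold without control day 2 round 1, control day 4, expanded day 1 round 2, expanded day 2 round 1 or expanded day 4, and with doublets kept.

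Fibroblast-like cells held Cxcl14 at 55.2, 59.5, 111, 223 and 91.2 CPM in control and at 64.7, 81.9, 204, 121 and 893 CPM in expanded libraries. Only expanded day 4 lay above the control range. The difference did not pass over all days (0.48 ± 0.43, edgeR adjusted p = 0.409). It did pass over hashtagged mice (2.58 ± 0.70, edgeR adjusted p = 0.00418), and the day 4 contrast of 1 library per arm did (3.01 ± 0.51, edgeR adjusted p = 0.0404, where 1.28% of genes passed). The 14 control mice of the mouse fit ranged from 6.47 to 152 CPM, all below the 223 CPM of control day 2 round 2. Cells without a mouse call were left out of that fit, and mice of the same pool shared a library. Within cluster 9 the control libraries held 1.56, 0.894, 0, 29.0 and 16.6 CPM and the expanded libraries 22.6, 61.7, 136, 90.5 and 386 CPM (3.62 ± 0.51, edgeR adjusted p = 4.36e-04). Expanded day 1 round 1 was the only expanded library within the control range. In dendritic-like cells, where Cxcl14 ranged from 0.466 to 18.1 CPM in control and from 0.428 to 70.5 CPM in expanded libraries, it did not pass (1.31 ± 0.62, edgeR adjusted p = 0.163), and with the sequencing round as a block it did (1.45 ± 0.39, edgeR adjusted p = 0.0260).

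**Figure D5:**
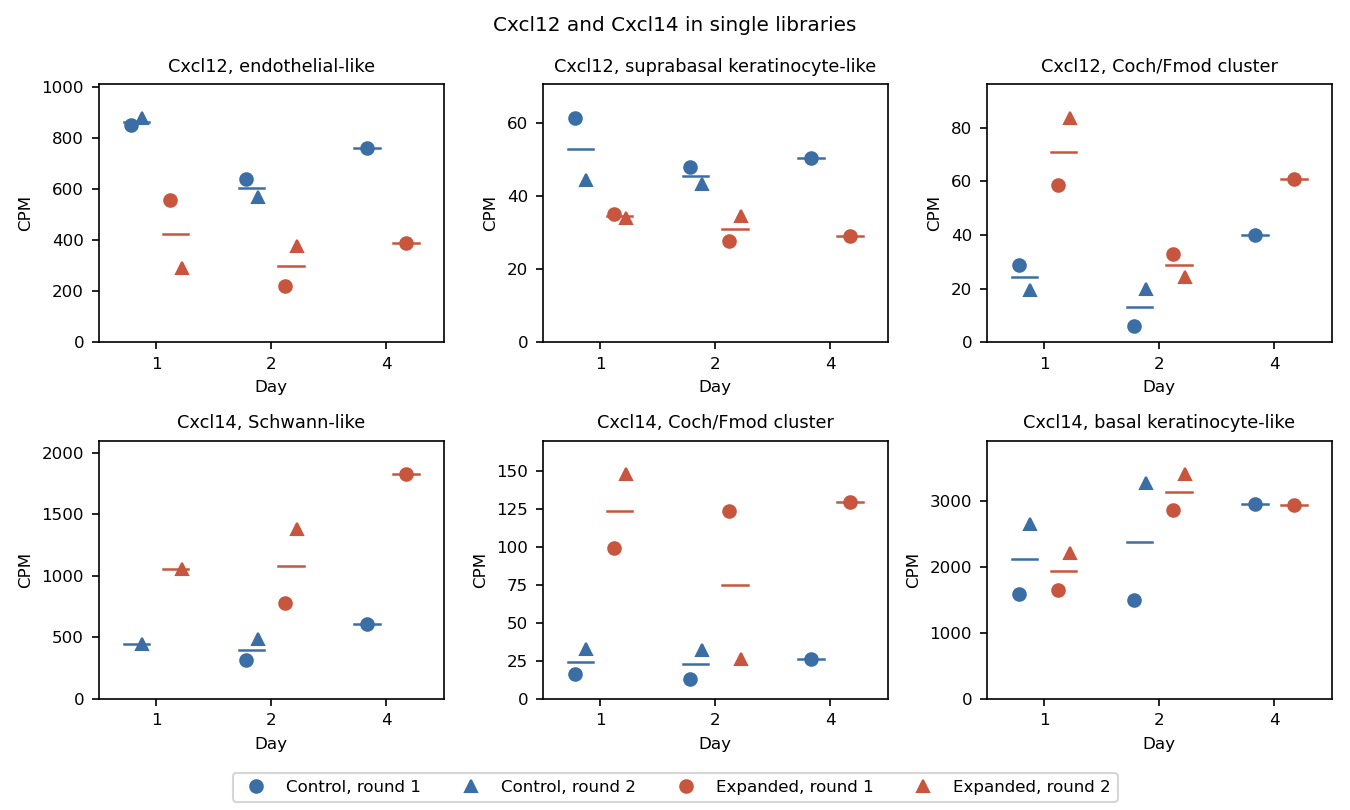
Level (CPM, y axis from 0) of Cxcl12 and Cxcl14 in each library by day (x axis) in 6 pairs of a gene and a class, with circles for round 1, triangles for round 2 and bars for the mean of an arm and day. Cxcl12 in endothelial-like and suprabasal keratinocyte-like cells and Cxcl14 in Schwann-like cells separate the arms, and Cxcl14 in basal keratinocyte-like cells does not.

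Cxcl16, the transmembrane ligand of CXCR6, fell in endothelial-like cells at a low level. Control libraries held 31.0, 16.7, 18.2, 9.93 and 14.4 CPM and expanded libraries 4.31, 5.37, 7.14, 1.44 and 13.6 CPM. Expanded day 4 lay within the control range and the other 4 expanded libraries lay below it. The log2 fold change was -1.49 ± 0.40 (edgeR adjusted p = 0.0302), and at day 1 -2.36 ± 0.48 (edgeR adjusted p = 0.0477, where 1.22% of genes passed). Without either day 4 library the log2 fold change was -2.08. Leaving out 1 library moved the adjusted p between 0.0123 and 0.0965, and the call was lost without either control library of day 1, control day 2 round 1, either expanded library of day 1 or expanded day 2 round 2. After thinning, 2.33% of control and 1.23% of expanded endothelial-like cells had a UMI, beside 1.07% and 0.178% of T cell-like cells. Dendritic markers, whose cells carry Cxcl16, summed to 200.3 to 499 CPM in control and 168 to 286 CPM in expanded endothelial-like cells, and their part was not tested.

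In its main sources no difference passed over libraries. The Ccl22 and Cd207 cluster held 362, 477, 516, 471 and 439 CPM in control and 361, 814, 938, 968 and 1154 CPM in expanded libraries. The first expanded library was level with the lowest control and the other 4 lay above all controls (edgeR adjusted p = 0.122). Dendritic-like cells held 255, 278, 266, 259.5 and 279 CPM in control and 94.0, 259, 439.8, 369 and 483 CPM in expanded libraries, so the expanded libraries lay on both sides of a narrow control range (-0.03 ± 0.31, edgeR adjusted p = 0.954). Over hashtagged mice, which leave out day 1 round 1 with the low expanded value, the difference was 0.46 ± 0.18 and passed (edgeR adjusted p = 0.0465). Dendritic-like cells held 49.96 ± 4.85% of all Cxcl16 UMIs in control and 23.4 ± 9.08% in expanded libraries, and the class itself was 8.90% and 3.96% of the kept cells.

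Cxcr4, the receptor of CXCL12, passed in 1 class, at a level close to background. Fibroblast-like cells held 1.42, 0.471, 1.61, 1.23 and 1.34 CPM in control and 1.55, 4.20, 7.40, 2.29 and 3.07 CPM in expanded libraries (1.35 ± 0.43, edgeR adjusted p = 0.0315). Expanded day 1 round 1 lay within the control range and the other 4 above it. After thinning, 0.270% of control fibroblast-like cells had a UMI, beside 0.348% of control lymphatic endothelial-like cells, so the control level is read as background. The call was lost without 7 of the 10 libraries in turn (control day 1 round 2, all later controls, expanded day 1 round 2, expanded day 2 round 1 and expanded day 4), with adjusted p between 0.0144 and 0.135, and with the sequencing round as a block (edgeR adjusted p = 0.0506). It was also lost at Leiden resolution 2, with doublets kept and without the single cell that held the most Cxcr4 UMIs.

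In the leukocytes that carry most of the receptor, no difference passed. T cell-like cells held 292, 296, 284, 233 and 316 CPM of Cxcr4 in control and 589, 467, 265, 456 and 481 CPM in expanded libraries (0.61 ± 0.17, edgeR adjusted p = 0.229, beside 0.227% of genes). Expanded day 2 round 1 lay within the control range and the other 4 above it. A cluster led by Gzmc and Xcl1, genes of cytotoxic and innate lymphocytes, held 56.6, 63.5, 70.6, 88.7 and 126 CPM in control and 101, 119, 297, 419 and 163 CPM in expanded libraries (1.19 ± 0.26, edgeR adjusted p = 0.0622, beside 0.649% of genes). Its day 2 contrast passed (2.08 ± 0.30, edgeR adjusted p = 0.0462, where 0.0216% of genes passed). Macrophage or monocyte-like cells held 231, 194, 254, 209 and 189 CPM in control and 251, 285, 287, 279 and 407 CPM in expanded libraries, overlapping only at the lowest expanded value. That difference did not pass over libraries (0.36 ± 0.17, edgeR adjusted p = 0.147) and passed over hashtagged mice (0.49, edgeR adjusted p = 0.00385).

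Summed over all kept cells of a library, where cell mix and level per cell act together and cannot be told apart, 3 of the 7 members passed, beside 26.3% of all genes. Cxcl12 fell from 147, 124, 104, 104 and 128 CPM to 103, 77.5, 57.8, 59.5 and 92.8 CPM (-0.85 ± 0.13, edgeR adjusted p = 0.00305). Cxcl13 was at 13.6, 10.1, 28.2, 7.67 and 6.31 CPM in control and at 1.65, 1.12, 1.91, 1.61 and 18.9 CPM in expanded libraries (-2.67 ± 0.81, edgeR adjusted p = 0.0374), and it passed in 3 of the 10 fits that leave out 1 library, those without control day 2 round 2, control day 4 (-3.43) or expanded day 4 (-3.42), while without control day 2 round 1 it was -2.05. Cxcl14 rose from 95.4, 153, 80.3, 234 and 136 CPM to 303, 476, 159, 282 and 493 CPM (1.07 ± 0.32, edgeR adjusted p = 0.0354), and likewise passed only without control day 2 round 2, expanded day 1 round 1 or expanded day 2 round 1. Basal keratinocyte-like cells, which held 43.8 ± 15.1% of the Cxcl14 UMIs in control and 66.8 ± 11.8% in expanded libraries, were 2.35% and 7.73% of the kept cells. Cxcl9 (-1.45 ± 0.48, edgeR adjusted p = 0.0515), Cxcr4 (0.70 ± 0.27, 0.0836), Cxcl16 (0.29 ± 0.20, 0.315) and Cxcl10 (0.09 ± 0.30, 0.842) did not pass over all cells. Cxcl9 passed when the sequencing round was added as a block, which made it 4 of the 7.

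Whether the effect of expansion differed between days was tested by the interaction of arm and day. None of 67 member tests passed by edgeR, beside 0.00281% of all gene tests, 14 had an unadjusted p under 0.05, and the smallest adjusted p was 0.365.

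Genes around these chemokines were described from 4 lists. The macrophage or monocyte-like and fibroblast-like classes were made of different clusters in the 2 arms, as given above. The part of this make-up in the values of the listed genes was not tested. Of 18 genes of interferon and TNF signalling, 227 tests over the 16 classes and clusters gave 7 higher and 23 lower in expanded skin (13.2% passed, beside 12.7% over all genes). Irf1, a transcription factor that interferon-gamma induces, fell in endothelial-like cells from 496 ± 57.6 to 262 ± 50.7 CPM (-1.03 ± 0.15, edgeR adjusted p = 0.00153) and in smooth muscle-like cells from 458 ± 27.4 to 253 ± 94.5 CPM (-1.01 ± 0.17, edgeR adjusted p = 0.00247). It also fell in lymphatic endothelial-like cells (-1.42 ± 0.18, edgeR adjusted p = 1.77e-04) and in fibroblast-like cells (-0.69 ± 0.14, edgeR adjusted p = 0.00343). In macrophage or monocyte-like cells the list had 4 genes higher and 2 lower of 16 tested. Irf7, a factor of the type I interferon response, rose there from 21.4 ± 17.5 to 95.9 ± 71.7 CPM (1.90 ± 0.36, edgeR adjusted p = 0.00508), and Tnf fell (-1.16 ± 0.20, edgeR adjusted p = 0.00338), while Tnf rose in dendritic-like cells (0.70 ± 0.16, edgeR adjusted p = 0.0163).

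Of the other CXC and atypical receptors and ligands, 9 of the 10 listed were in the matrices, and 32 tests gave 2 higher and 4 lower (18.8%). Cxcr3, the receptor of CXCL9 and CXCL10, fell in macrophage or monocyte-like cells from 11.6 ± 5.04 to 1.92 ± 1.504 CPM (-3.03 ± 0.59, edgeR adjusted p = 0.00535). Ackr1, the venular receptor that binds inflammatory chemokines, fell in endothelial-like cells from 311.5 ± 53.4 to 104 ± 32.9 CPM (-1.73 ± 0.19, edgeR adjusted p = 6.15e-04). In fibroblast-like cells the CXCL12 scavenger Ackr3 fell (-0.53 ± 0.16, edgeR adjusted p = 0.0272), and Ackr4, which scavenges CC chemokines, rose (0.98 ± 0.26, edgeR adjusted p = 0.0137).

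The 10 proteases that cut or shed these chemokines gave 5 higher and 8 lower of 70 tests (18.6%). Dpp4, which truncates CXCL9, CXCL10 and CXCL12, fell in fibroblast-like cells from 106 ± 12.9 to 35.9 ± 11.2 CPM (-1.79 ± 0.20, edgeR adjusted p = 2.46e-04), as did Adam17, a sheddase (-0.70 ± 0.09, edgeR adjusted p = 4.08e-04). Mmp14, a membrane-bound matrix metalloproteinase, rose in macrophage or monocyte-like cells (1.63 ± 0.22, edgeR adjusted p = 0.00128) and in the Coch and Fmod cluster (0.84 ± 0.14, edgeR adjusted p = 0.00294), and fell in suprabasal keratinocyte-like cells (-0.60 ± 0.18, edgeR adjusted p = 0.0370). The 16 genes of CXCR4 signalling and trafficking gave 15 higher and 25 lower of 222 tests (18.0%). Rgs1, which damps chemokine receptor signalling, rose in the Ccl22 and Cd207 cluster (1.38 ± 0.27, edgeR adjusted p = 0.0175) and fell in endothelial-like cells (-1.69 ± 0.47, edgeR adjusted p = 0.0336). Rgs16 rose in fibroblast-like cells (2.01 ± 0.43, edgeR adjusted p = 0.00443) and fell in smooth muscle-like cells (-1.28 ± 0.17, edgeR adjusted p = 7.23e-04), and Cd74, the MHC class II invariant chain and a partner of CXCR4, fell in macrophage or monocyte-like cells (-2.68 ± 0.38, edgeR adjusted p = 0.00171).

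The genes whose levels were most like a member's over the 16 named classes, by Pearson correlation of mean log2(CPM + 1), are given as a description, since the classes share libraries. They were Eps8 (0.885) and Erp29 (0.877) for Cxcl9, Mcur1 (0.712) for Cxcl10, Pxdn (0.898) and Pls3 (0.873) for Cxcl12, and F13a1 (0.963) and C6 (0.939) for Cxcl13. For Cxcl14 Efs (0.939) is given, for Cxcl16 Fcor (0.884) and Nrg1 (0.868), and for Cxcr4 Gpr132 (0.938) and Bcl2a1b (0.906). The closest gene for Cxcl10 was less alike than that of any other member.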

How the data were processed

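The authors sequenced 10x Chromium 3′ libraries of sorted live skin cells and deposited UMI counts per gene and cell, made with Cell Ranger 6.1.2 on mm10, per the submitters' processing notes. Hashtag libraries for 8 of the 10 mRNA libraries were deposited as barcode counts. Of 55174 barcodes, those under 200 genes or 500 UMIs or over 10% mitochondrial reads were dropped, and 1756 doublets (Scrublet, or hashtag doublets by Seurat 5.3.0) were removed. Library totals were 17726739 to 75470722 UMIs. Cells were clustered with scanpy 1.11.5 (2000 variable genes, 30 components, 15 neighbours, Leiden resolution 1) and named from markers, so classes are rebuilt here and may differ from the authors'. A cluster was named where at least 3 markers and at least 40% of a class's list supported it. It stayed unnamed where another class led or came close, or where it was shallow without a leading marker. The same held where over 75% of its cells came from 1 library. A dermal papilla name was withheld where Fmod and Kera were among the 10 leading genes. Counts were summed per class and library (at least 20 cells, at least 4 libraries per arm) and tested with edgeR 4.0.16 in R 4.3.3 (TMM, filterByExpr, day as covariate, Benjamini-Hochberg). DESeq2 1.42.0 was an alternative. The edgeR test was also run on simulated counts of fibroblast-like and endothelial-like cells only, without a day effect, with the outcome not reported here. The hashtags assigned 21035 of 36897 cells to 28 mice. Day 1 round 1 had no hashtags.

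The sequencing round, which the labels give as the replicate number, marks a shared batch and pairs libraries across arms. Deviations from the group means of libraries of the same day and round correlated at 0.629 (day 1) and 0.363 (day 2) over 8519 genes. The 7 members, the lists and the markers were chosen with earlier results of these data known. Named genes are the members in every class where they passed the filter, up to 3 per list, direction and class among those that passed with the largest fold change, and the 3 most alike per member. From the last 2, examples are given, and some items are not reported here. Values of the hashtag libraries were used only to assign mice and doublets. Intervals on pooled counts are exact, at 95%, and cover counting error only.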

Additional observations from a re-analysis of the deposited data

Results flagged for a closer look

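Within each arm, 40 sets of 4 or 5 libraries were checked for a value far from the others, and 4 stood out. Chance gives about 1 in 20 for normally spread values, a rate that does not hold for sparse counts. In a set where the other libraries held no UMI, as in cluster 13, any count stands out. Some sets also share cells. Cxcl13 over all kept cells was 18.9 CPM in expanded day 4, the highest of 5 expanded libraries, from 685 UMIs in 3 cells. Cxcl10 in smooth muscle-like cells was 242 CPM in control day 4, the highest of 5 control libraries. Cxcl13 in fibroblast-like cells was 1.72 CPM in expanded day 2 round 2, the highest of 5 expanded libraries, from 3 UMIs. Cxcl13 in cluster 13 was 1.39 CPM in expanded day 4, the highest of 4 expanded libraries, from 1 UMI.

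For 3 members, all 5 pairs of the same day and round went one way in one class and the opposite way in another. The difference was not tested in any of these cases. Cxcl10 had a log2 fold change of 1.02 in macrophage or monocyte-like cells, where it did not pass, and of -1.61 in smooth muscle-like cells. Cxcl12 stood at 1.17 in the Coch and Fmod cluster, at -1.13 in endothelial-like cells and at -0.72 in suprabasal keratinocyte-like cells. Cxcr4 stood at 1.19 in the Gzmc and Xcl1 cluster, 1.35 in fibroblast-like cells and 0.36 in macrophage or monocyte-like cells, and at -0.62 in the Coch and Fmod cluster. Of these 4 Cxcr4 values, the one in fibroblast-like cells passed the test.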

How the results depend on the processing

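The 12 passing pairs became 17 with DESeq2, 9 without the day covariate, 12 with the replicate block (sequencing round), 13 without the highest cell (chosen after seeing the data) and 8 to 15 when each library was left out in turn. Without the filter on low counts 40 passed, and thinning each cell to 2000 UMIs took the comparable count from 11 to 6. In both cases the cause was not tested. In all kept cells 3 members passed, 5 with DESeq2, 4 with the replicate block and 1 to 4 with 1 library left out, 1 of them without control day 1 round 1, control day 1 round 2, expanded day 1 round 2 or expanded day 2 round 2. The replicate block changed 3 calls, fibroblast-like Cxcr4 (lost), dendritic-like Cxcl14 (gained, 1.45) and Cxcl9 in all kept cells (gained).

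Direction was checked for 34 results, and it reversed only for 4 that had not passed. The other tested pairs were not checked for direction. Cxcl10 in all kept cells was -0.0078 without the day covariate and -0.14 to 0.38 with 1 library left out (-0.14 without control day 2 round 1, -0.04 without expanded day 2 round 2). Cxcl12 in fibroblast-like cells was 0.089 at Leiden resolution 2, 0.49 over hashtagged mice, 0.052 without the day covariate, 1.84 in cluster 9 alone (chosen after seeing the data) and -0.18 to 0.15 with 1 library left out (0.15 without control day 1 round 1, 0.12 without expanded day 1 round 1). Cxcl14 in fibroblast-like cells was -0.052 without control day 4 and -0.049 without expanded day 4, the lower end of a range to 0.77 with 1 library left out, and 2.58 over hashtagged mice. Cxcl16 in dendritic-like cells was 0.11 at Leiden resolution 2, 0.19 with thinned cells, 0.047 with doublets kept, 0.46 over hashtagged mice, 0.10 without the day covariate and -0.20 to 0.28 with 1 library left out (0.039 without control day 1 round 1, 0.091 without control day 1 round 2, 0.28 without expanded day 1 round 1). The 15 called results kept their direction in all 258 refits. Contrasts by day and the interaction were not refitted. Low counts limit Cxcl9, Cxcl13 and fibroblast-like Cxcr4.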

Other observations

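Dermal papilla-like cells, the fibroblast-lineage cells at the base of hair follicles, had enough cells in 3 control and 4 expanded libraries and were not tested. Cxcl14 was at 114, 21.1 and 54.9 CPM in those control libraries and at 190, 155, 229 and 348 CPM in the expanded libraries, which all lay above them. Neutrophil-like cells had 2 control and 4 expanded libraries, with Cxcr4 at 184 and 195 CPM in control and at 161, 161, 198 and 261 CPM in expanded libraries, overlapping.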
